A study of Mus musculus with 16 samples.

Results

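The 37 genes carried by the mouse mitochondrial genome were followed through RNA-seq and Ago2 HITS-CLIP of activated B cells that lack miR-221 and miR-222. They were taken as every gene row on the mitochondrial chromosome of the deposited expression table, 37 of 43432 rows, and comprise 13 mRNA genes, 2 rRNA genes and 22 tRNA genes by the table's biotype. From the CLIP output, all bins on the mitochondrial chromosome were taken, 6044 of 13147668 bins of 5 nt, of which 3260 were on the plus strand and 2784 on the minus strand. KO mice lack miR-221 and miR-222, and Flox mice carry the floxed locus and are named WT in the table's columns; both are on C57B6L/J. All cells were splenic B cells cultured for 4 days; the medium held 500 ng/ml of a CD40 antibody, 25 ng/ml of IL-4 and 10 ng/ml of IL-21. For each assay (RNA-seq and CLIP) each genotype had 4 libraries. The labels give neither the Cre driver nor whether the replicates came from separate animals, so p-values measure only the spread between these samples, which may be technical.

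The mitochondrial genome is a small circle that encodes core subunits of the respiratory chain and of ATP synthase, together with the rRNAs and tRNAs needed to translate them. Both of its strands are transcribed as long precursors, and the tRNAs that lie between most other genes are cut out to release the mRNAs and rRNAs. All other proteins of mitochondria, including the remaining respiratory subunits, are encoded in the nucleus and imported. Activated B cells are known to enlarge their mitochondrial network as they begin to divide.

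The RNA-seq libraries of KO held between 22947689 and 39236132 reads, and those of Flox between 25421025 and 39616596. Gene rows with a read numbered 16352, 16390, 17297 and 18765 in KO 1 to 4, against 18613, 18829, 18140 and 18253 in Flox 1 to 4. Library quality weights, used in an alternative fit, were 0.65, 0.53, 0.31 and 1.23 in KO 1 to 4. In Flox 1 to 4 they were 0.78, 1.46, 3.69 and 1.80. The part of library quality in the values below was not tested. KO 1 and KO 3 stood apart from the other 6 libraries on the first principal component of all tested genes (33.5% of the variance), at -37.97 and -35.62, with KO 2 at -15.35, KO 4 at 7.48 and Flox between 14.5 and 26.5. The check of the targeted genes was uninformative at this depth, as Mir222 was unread throughout (0 reads) and Mir221 had 0 reads in the KO libraries, against 0, 0, 3 and 1 in Flox 1 to 4. All 8 B cell markers were read in every library, summing to 9727 to 17749 CPM (counts scaled to the library total) in KO and 10764 to 16790 in Flox. Summed markers of T cells (8 genes, 3 read in every library, Cd8b1 at 0 throughout) were at 8.89 to 19.8 in KO and 10.9 to 16.1 in Flox. Those of myeloid cells (8 genes, 5 read in every library, S100a8 and S100a9 at 0 throughout) were at 2.88 to 3.71 in KO and 1.82 to 3.54 in Flox. The 4 dendritic cell markers (1 read in every library, none at 0 throughout) summed to 70.4 to 90.6 in KO and 90.8 to 106 in Flox. The 6 stromal and endothelial markers (3 read in every library, Col3a1 at 0 throughout) summed to 25.0 to 29.3 in KO and 17.9 to 23.0 in Flox, and the 4 platelet markers (1 read in every library, Ppbp at 0 throughout) to 1.21 to 1.89 in KO and 1.94 to 2.60 in Flox. The last 3 lists had no overlap between the groups, where 7.97% of all tested genes, taken singly, had none. Their part in the values below was not tested. The nearest KO and Flox values were 90.6 and 90.8 for dendritic cell markers and 1.89 and 1.94 for platelet markers. They were 25.0 and 23.0 for stromal and endothelial markers. Those of plasma cells, into which B cells can mature, summed to 1745 to 2431 in KO and 2009 to 2900.1 in Flox, and those of NK and erythroid cells to at most 2.27 in any library.

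None of the mitochondrial RNAs passed the test between KO and Flox. Of the 37 genes, 14 reached a mean of 10 normalized counts (reads divided by a size factor for the library) and were tested (7 mRNAs, 2 rRNAs and 5 tRNAs), 8 tRNAs were read below that level, and 15 genes had 0 reads in all 8 libraries (6 mRNAs and 9 tRNAs). Among the 14, 0 were called by limma at an adjusted p under 0.05, where 0.0687% of the 13091 genes tested were called (9 genes, 7 higher and 2 lower in KO). edgeR and DESeq2 on the whole reads recovered from these values also called 0 of them. At an unadjusted p under 0.05 there were 2, mt-Co1 and mt-Cytb, both with higher means in KO, where 15.1% of all genes reached that level (7.74% higher and 7.39% lower in KO). The groups overlapped in all 14, and over all genes 7.97% had no overlap. The log2 fold change, KO over Flox, was positive for 11 of the 14 and negative for 3, with a median of 0.29, while 48.5% of all genes were positive and the median over all genes was -0.01.

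The mRNAs for complex I, the NADH dehydrogenase that feeds electrons into the respiratory chain, include mt-Nd1, mt-Nd2, mt-Nd4, mt-Nd5 and mt-Nd6. mt-Nd1 had 156372, 121674, 204474 and 90629 normalized counts in KO 1 to 4, against 110341, 102598, 94971 and 95228 in Flox 1 to 4. KO 3, KO 1 and KO 2 were above all Flox libraries and KO 4 was below them all, so the groups overlapped. Its log2 fold change was 0.45 (SE 0.21, adjusted p 0.337). mt-Nd2 had 59101, 37981, 79999 and 29675 normalized counts in KO 1 to 4, against 38299, 38582, 30691 and 29727 in Flox 1 to 4. Only KO 1 and KO 3 exceeded the Flox range and KO 4 was just below it, and the log2 fold change was 0.50 (SE 0.26, adjusted p 0.372). mt-Nd4 had 52291, 36394, 58190 and 26300 normalized counts in KO 1 to 4, against 34589, 37899, 31465 and 30930 in Flox 1 to 4. Again KO 1 and KO 3 lay above the Flox libraries and KO 4 below them, with a log2 fold change of 0.30 (standard error 0.21, adjusted p 0.494).

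mt-Nd5 encodes one of the proton-pumping subunits of complex I and varied most between the KO libraries among the mRNAs. It had 89993, 56552, 190427 and 45384 normalized counts in KO 1 to 4, against 53345, 56638, 47925 and 42879 in Flox 1 to 4. KO 3 was the highest of all 8 libraries, KO 1 was also above the Flox range, and KO 2 and KO 4 lay within it. The log2 fold change was 0.71 (SE 0.35, adjusted p 0.359). mt-Nd6 is the only mRNA on the other strand of the circle. It had 529.5, 378.2, 1440.6 and 529.8 normalized counts in KO 1 to 4, against 603.3, 580.2, 654.2 and 703.6 in Flox 1 to 4. KO 3 was above all Flox libraries and the other 3 KO libraries were below them all, and the log2 fold change was -0.02 (SE 0.32, adjusted p 0.985). It was -0.42 without KO 3, 0.22 without KO 2, and 0.18 by edgeR and by DESeq2. The mean normalized count of mt-Nd6 was higher in KO, 719.5 against 635.3 in Flox, while limma compared means of log2 values. Whether the counting used strand is not given in the sources used here, so reads of mt-Nd6 cannot be told apart from reads of the opposite strand of that stretch.

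mt-Cytb encodes cytochrome b, the mitochondrial subunit of complex III. It had 157385, 119291, 190504 and 83389 normalized counts in KO 1 to 4, against 108340, 102225, 85661 and 79145 in Flox 1 to 4. KO 1, KO 2 and KO 3 were above all Flox libraries and KO 4 was within their range. The log2 fold change was 0.50 (SE 0.22, unadjusted p 0.0481, adjusted p 0.326). mt-Co1 encodes the catalytic core of cytochrome c oxidase, complex IV, and had rank 3 by mean among all rows of the table. It had 366174, 246994, 512310.4 and 215765 normalized counts in KO 1 to 4, against 198495, 216164, 217574 and 217733 in Flox 1 to 4. The same 3 KO libraries were above all Flox libraries and KO 4 was within their range. The log2 fold change was 0.57 (SE 0.23, unadjusted p 0.0318, adjusted p 0.298). The authors' deposited table gave log2 fold changes of 0.66 for mt-Co1 (FDR 0.0820), 0.55 for mt-Cytb (FDR 0.146) and 0.51 for mt-Nd1 (FDR 0.160). In the authors' deposited table mt-Nd5 stood at 0.93 and mt-Nd6 at 0.18, with no p-value given for either.

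The 2 rRNAs form the RNA of the small (mt-Rnr1) and large (mt-Rnr2) subunits of the mitochondrial ribosome. mt-Rnr1 had 24150, 16246, 28943 and 15688 normalized counts in KO 1 to 4, against 16563, 16640, 17852 and 17462 in Flox 1 to 4. KO 1 and KO 3 were above all Flox libraries and KO 2 and KO 4 below them all, with a log2 fold change of 0.26 (standard error 0.17, adjusted p 0.466). It was 0.10 without KO 3, 0.11 with library quality weights and -0.10 without KO 1 and KO 3. mt-Rnr2 had 38902, 33849, 36061 and 28457 normalized counts in KO 1 to 4, against 30513, 30598, 31257 and 29061 in Flox 1 to 4. KO 1, KO 2 and KO 3 were above and KO 4 below the Flox libraries, with a log2 fold change of 0.17 (standard error 0.10, adjusted p 0.433). It was 0.10 without KO 1, 0.25 without KO 4 and 0.03 without KO 1 and KO 3.

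**Figure D1:**
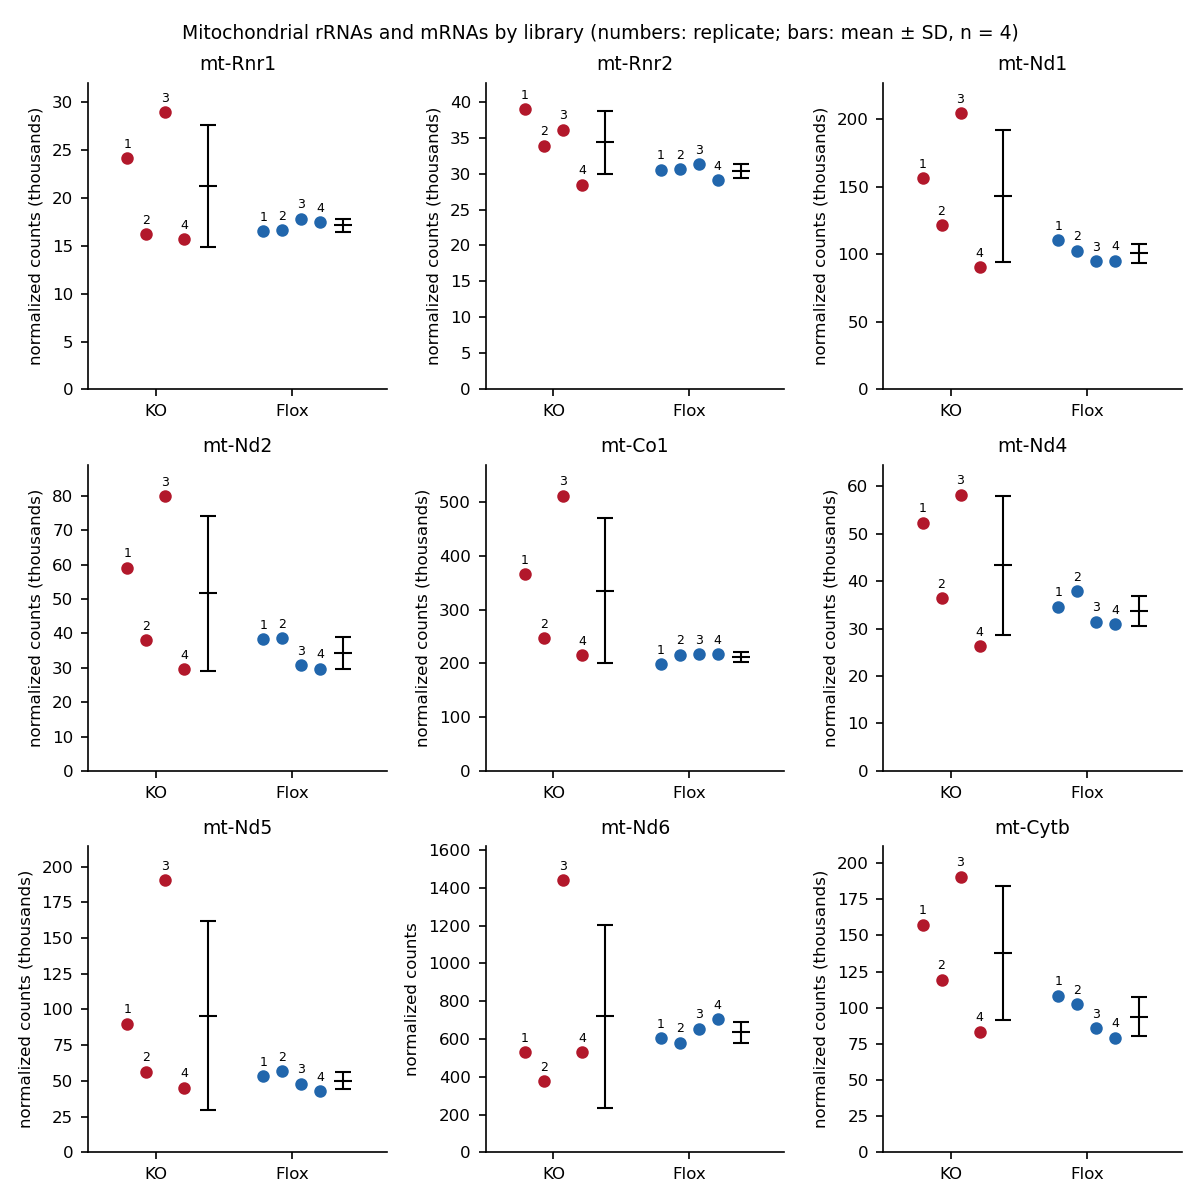
Normalized counts of the 2 rRNAs and the 7 mRNAs that were read, one panel per gene, with KO libraries in red and Flox libraries in blue; numbers give the replicate and bars the mean ± SD (n = 4). KO 3 is the highest library in every panel except mt-Rnr2, where KO 1 is, and the Flox libraries of mt-Co1 lie between 198495 and 217733.

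The spread among KO libraries was wider than among Flox libraries for all 9 of these rRNAs and mRNAs. On the log2 scale the SD over libraries was 0.50 to 0.91 in KO and 0.06 to 0.21 in Flox for the 7 mRNAs. For mt-Rnr1 it was 0.43 in KO and 0.05 in Flox, and for mt-Rnr2 0.19 in KO and 0.04 in Flox. The median over all tested genes was 0.22 in KO and 0.14 in Flox, so a wider KO spread was not restricted to mitochondrial RNA. Leaving out KO 1 and KO 3 together brought the median log2 fold change of the 7 mRNAs to 0.02 (4 of 7 positive), against 0.50 with all libraries (6 of 7 positive). For every mRNA read but mt-Nd6 these were the highest KO libraries, so a lower value without them follows from the choice. Leaving out KO 3 alone gave a median of 0.25, and leaving out KO 4 alone 0.72. Without KO 3 the log2 fold change was 0.34 for mt-Co1, 0.32 for mt-Cytb and 0.30 for mt-Nd5, and without KO 1 and KO 3 it was 0.12, 0.10 and 0.02 for these genes in that order.

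Reads of mitochondrial mRNA came from 7 of the 13 mRNAs, as the other 6 had 0 reads. Mitochondrial mRNA took 2.93%, 2.07%, 4.05% and 1.65% of all reads in KO 1 to 4, against 1.83%, 1.90%, 1.73% and 1.68% in Flox 1 to 4. The mean was 2.68% ± 1.06 in KO and 1.78% ± 0.0982 in Flox (SD, n = 4 each), with 3 KO libraries above and 1 below all Flox libraries. The difference of the means was 0.892 percentage points with all libraries, 0.433 without KO 3 and 0.0771 without KO 1 and KO 3. The libraries left out were those with the highest shares. In bulk RNA, fewer cells of a kind and less RNA per cell cannot be told apart. Mitochondrial rRNA took 0.209%, 0.167%, 0.213% and 0.148% of reads in KO 1 to 4, against 0.158%, 0.162%, 0.167% and 0.158% in Flox 1 to 4. rRNA spanned a narrower range than mRNA. The ratio of rRNA to mRNA reads was 0.0737 ± 0.0160 in KO and 0.0905 ± 0.0055 in Flox (SD, n = 4 each), lowest in KO 3 at 0.0525. It is a ratio of reads and not of amounts of RNA. The difference of the means, -0.0168, was -0.00975 without KO 3 and -0.00514 without KO 1 and KO 3, the libraries with the lowest ratios.

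The make-up of the mitochondrial mRNA pool differed between libraries in fewer places. mt-Nd4 made up 5.93%, 5.88%, 4.70% and 5.35% of mitochondrial mRNA reads in KO 1 to 4, against 6.36%, 6.83%, 6.18% and 6.23% in Flox 1 to 4. It was the only one of the 7 mRNAs whose share did not overlap between the groups, all 4 KO libraries being below all 4 Flox libraries. By normalized counts, 7.97% of all tested genes had no overlap. No test was made of a share chosen after its values were seen. Shares add up to a fixed total, and 877 of the 1378 bases of mt-Nd4 lie in the stretch whose mRNAs had 0 reads. mt-Nd5 made up 15.4% of the pool in KO 3, against 9.13% to 10.2% in the other KO libraries and 8.64% to 10.2% in Flox. mt-Nd5 reads were 0.9996 times those of mt-Cytb in KO 3, 0.474 to 0.572 times in the other KO libraries, and 0.492 to 0.559 times in Flox. mt-Rnr1 reads were 0.621, 0.480, 0.803 and 0.551 times those of mt-Rnr2 in KO 1 to 4, against 0.543, 0.544, 0.571 and 0.601 times in Flox 1 to 4. Among the 7 mRNAs read, mt-Co1 was the largest part of the pool in all libraries, at 39.9% to 43.9% in KO and 36.5% to 43.9% in Flox. The pool lacks the 6 mRNAs with 0 reads, and mt-Co1 also lies partly in their stretch. These are shares of reads, not amounts of RNA.

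**Figure D2:**
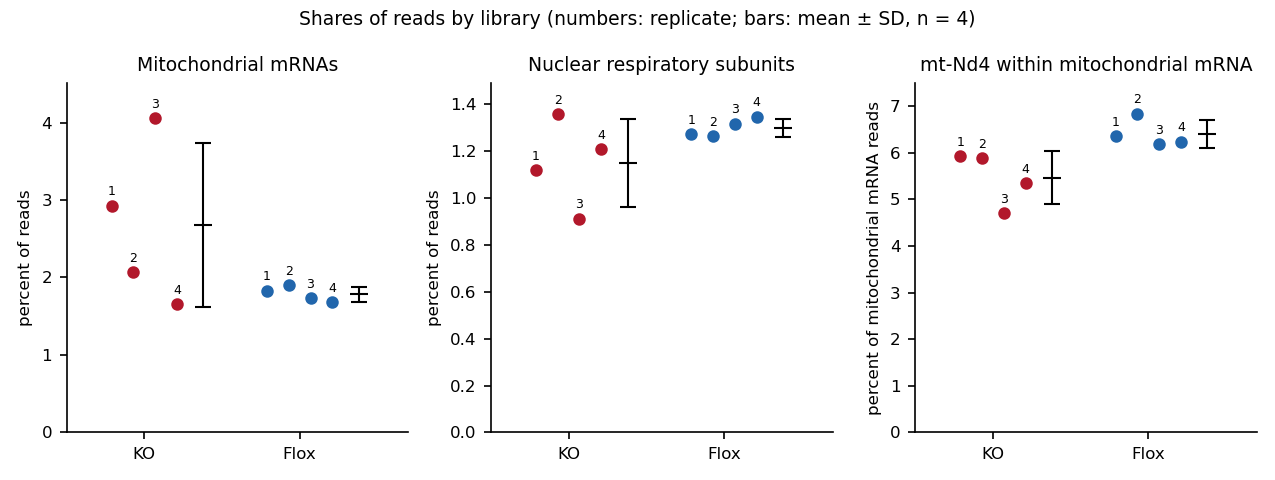
Percent of all reads in the 7 mitochondrial mRNAs that were read (left) and in 78 nuclear-encoded respiratory subunits (middle), and mt-Nd4 as a percent of mitochondrial mRNA reads (right), by library. Numbers give the replicate and bars the mean ± SD (n = 4). KO 3 has the highest mitochondrial share (4.05%) and the lowest nuclear subunit share (0.911%), and all KO libraries lie below all Flox libraries only in the right panel.

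Levels per kb can be given for the 7 mRNAs that were read, of which mt-Co1 and mt-Nd4 lie partly in a window whose enclosed mRNAs had 0 reads. Per kb of gene, mt-Co1 stood highest of the 7, with 217029.5 ± 87137 normalized counts per kb in KO, against 137535 ± 6057 in Flox (SD, n = 4 each). mt-Nd1 followed at 149725 ± 51031 in KO and 105313 ± 7614 in Flox, and mt-Cytb at 120317 ± 40576 in KO and 82030.4 ± 11979 in Flox. The mean ± SD ranges of these 3 overlapped in KO and did not touch in Flox. The SD is over libraries, each of which holds all of these genes, so it does not measure whether genes differ. mt-Nd5 stood at 52406 ± 36187 in KO and 27520.2 ± 3321 in Flox, mt-Nd2 at 49797 ± 21749 in KO and 33068 ± 4596 in Flox, and mt-Nd4 at 31418 ± 10593 in KO and 24471 ± 2336 in Flox. The mean ± SD ranges of those 3 also overlapped in KO, with the same limit. Of the 1378 bases of mt-Nd4, 877 lie in the window whose enclosed mRNAs had 0 reads. With all its counts divided by its other 501 bases, mt-Nd4 stood at 86414 per kb in KO and 67307 in Flox. Whether any of those counts came from bases inside the window was not tested. The rRNAs were lower in counts per kb, with mt-Rnr1 at 22258 ± 6720.4 in KO and 17936 ± 660.4 in Flox, and mt-Rnr2 at 21692 ± 2794 in KO and 19189 ± 585 in Flox. The part of RNA selection before sequencing was not tested, so rRNAs and mRNAs cannot be set beside each other as amounts of RNA. mt-Nd6 was the lowest of the mRNAs read, at 1386 ± 936 in KO and 1224 ± 106 in Flox.

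**Figure D3:**
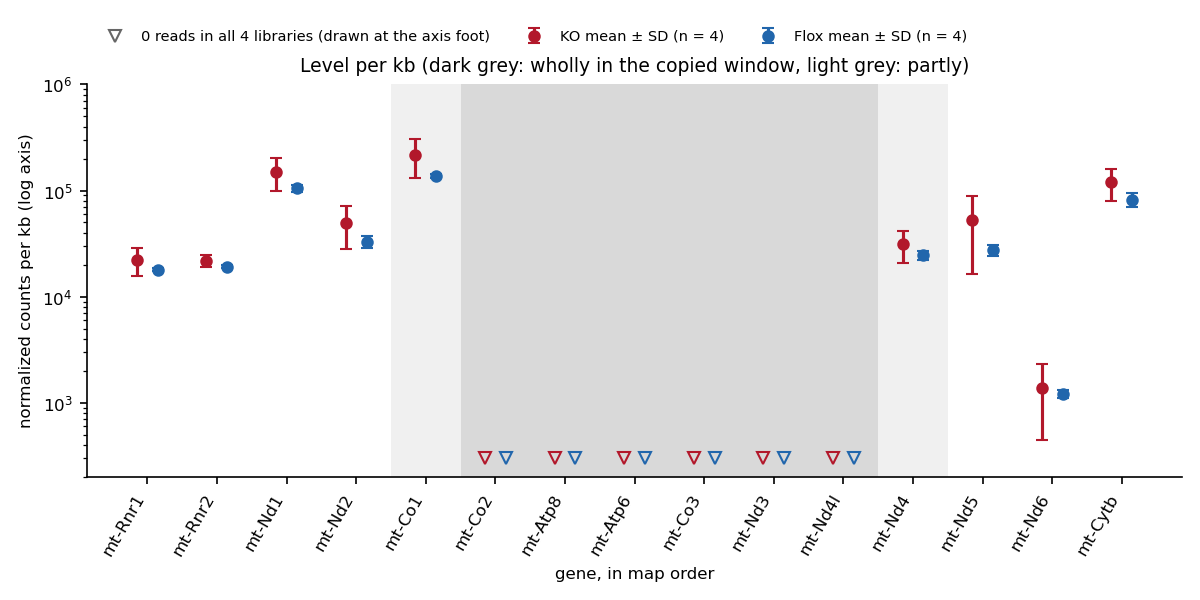
Normalized counts per kb of each rRNA and mRNA gene in map order on a log axis, KO in red and Flox in blue (mean ± SD, n = 4); open triangles mark genes with 0 reads and do not stand for a level. The 6 genes with 0 reads are next to each other, between mt-Co1 and mt-Nd4, in the window that has a copy on chromosome 1 (grey).

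6 of the 13 mRNAs had 0 reads in every library: mt-Co2 and mt-Co3 (complex IV), mt-Atp8 and mt-Atp6 (ATP synthase), and mt-Nd3 and mt-Nd4l (complex I). A count of 0 allows up to 3 reads in a library, for counting error only, whereas the neighbouring mt-Co1 and mt-Nd4 had at least 26300 normalized counts in each. The 6 genes fill one stretch of the circle that has a copy in the nuclear genome. On chromosome 1, minus strand, 7 gene rows annotated as unprocessed pseudogenes lie at 24611535 to 24616197 (GRCm38 positions, as in the table) in the same order and spacing as mitochondrial genes. They match mitochondrial positions 6381 to 11043, a window of 4663 bases, with starts that differ by at most 1 base from a constant offset.

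The rows run from Gm29216, which lies opposite the last 492 bases of mt-Co1, to Gm28439, opposite the first part of mt-Nd4. Between them stand Gm28661 for mt-Co2, Gm10925 for mt-Atp6, Gm28437 for mt-Co3, Gm28438 for mt-Nd3 and Gm10222 for mt-Nd4l. The 7 rows together held 5 reads over all 8 libraries. The window wholly holds 11 mitochondrial genes, 6 mRNAs and 5 tRNAs, and 10 of the 11 had 0 reads throughout. The exception was mt-Tr, the arginine tRNA, with 2 reads in all. mt-Nd4 lies in the window with 877 of its 1378 bases and mt-Co1 with 492 of 1545. With all its counts divided by the bases outside the window alone, mt-Co1 stood at 318434 (KO) and 201796 (Flox) normalized counts per kb. How the authors' alignment and counting treated reads that match both places is not given in the sources used here and was not tested. For the same reason the levels of mt-Co1, mt-Nd4 and the 6 unread mRNAs cannot be set beside those of the other mRNAs as amounts of RNA.

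The 22 tRNA genes together held 146 to 276 reads per library. 5 of them, all on the plus strand, reached the mean of 10, and none of the 8 on the minus strand did. mt-Tl1, a leucine tRNA gene, had 26.4, 70.4, 30.1 and 51.5 normalized counts in KO 1 to 4, against 72.1, 68.9, 54.4 and 37.2 in Flox 1 to 4. KO 1 and KO 3 were below all Flox libraries and KO 2 and KO 4 within their range, with a log2 fold change of -0.44 (standard error 0.34, adjusted p 0.533). mt-Tw, for tryptophan, had 26.4, 50.9, 55.5 and 65.2 normalized counts in KO 1 to 4, against 54.8, 52.4, 70.6 and 49.6 in Flox 1 to 4. Only KO 1 was outside the Flox range, and the log2 fold change was -0.26 (SE 0.29, adjusted p 0.672).

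mt-Tm, for methionine, had 23.3, 36.5, 28.9 and 8.3 normalized counts in KO 1 to 4, against 3.8, 14.0, 17.4 and 14.5 in Flox 1 to 4. KO 1, KO 2 and KO 3 were above all Flox libraries and KO 4 lay within their range. Its log2 fold change was 0.91, with an SE of 0.54 and an adjusted p of 0.422 at 5 to 28 reads per library. It was 0.24 with library quality weights, 0.58 with a pseudocount of 10 and 0.47 without Flox 1. mt-Ti, for isoleucine, had 23.3, 17.0, 28.9 and 25.8 normalized counts in KO 1 to 4, against 21.0, 20.9, 10.4 and 27.9 in Flox 1 to 4, with a log2 fold change of 0.29 (standard error 0.35, adjusted p 0.704) that was 0.02 without Flox 3 and 0.52 with quality weights. mt-Tt, for threonine, had 49.7, 45.6, 72.8 and 24.3 normalized counts in KO 1 to 4, against 32.3, 36.6, 38.2 and 50.6 in Flox 1 to 4, with a log2 fold change of 0.20 (standard error 0.32, adjusted p 0.779). In both genes the groups overlapped over most of their range.

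Of the 8 tRNAs read below the limit, mt-Tp (proline) had the most, 4, 7, 8 and 4 reads in KO 1 to 4, against 12, 7, 5 and 12 in Flox 1 to 4. mt-Tc, for cysteine, had 0, 0, 0 and 1 reads in KO 1 to 4, against 1, 6, 1 and 5 in Flox 1 to 4; the authors' deposited table gives it a log2 fold change of -3.27 with a p-value of 0.0476 and no FDR. mt-Te, for glutamate, was unread in all 4 KO libraries (0 reads), against 2, 2, 1 and 1 reads in Flox 1 to 4, without overlap. Over all tested genes 7.97% had no overlap. Each Flox count is under the 3 reads that a count of 0 allows in a single library, and the gene was not tested. mt-Tn, mt-Tq, mt-Ta, mt-Tv and mt-Tr had between 0 and 8 reads per library. In each of them the KO mean was the lower one and the groups overlapped. Mean normalized counts in KO and Flox were 2.1 and 4.25 for mt-Tn, 1.25 and 2.525 for mt-Tq, and 0.775 and 2.8 for mt-Ta. They were 0.275 and 0.6 for mt-Tv, and 0 and 0.425 for mt-Tr. Of the 9 tRNAs at 0, 4 lay in the copied window (mt-Ts1, mt-Td, mt-Tk and mt-Tg) and 5 outside it (mt-Tf, mt-Ty, mt-Th, mt-Ts2 and mt-Tl2). These counts say little about mature tRNA, which is too short and too structured to enter most RNA-seq libraries.

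The nuclear genes that serve mitochondria were read from 11 lists with 241 tested genes. 0 of the 241 were called by limma or by edgeR, and DESeq2 called 1, Mrps36, a protein listed with the small ribosomal subunit, which is named here because it was that single call. At an unadjusted p under 0.05, 5 were higher and 30 lower in KO, together 14.5%. Of all genes 15.1% reached that level, 7.74% higher and 7.39% lower, so the lists leaned more to the lower side. The median log2 fold change over the lists was -0.13, against -0.01 over all tested genes.

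Of the 78 nuclear-encoded subunits of complexes I to IV and ATP synthase, 69 had a negative and 9 a positive log2 fold change, with a median of -0.21. 0 were called, and 13 lower and 1 higher reached an unadjusted p under 0.05. Over all tested genes 48.5% were positive, and 7.39% were lower and 7.74% higher at that level. By complex, the negative ones were most of those tested throughout: 3 of 36 were positive in complex I, 1 of 4 in complex II, 0 of 9 in complex III, 2 of 12 in complex IV and 3 of 17 in ATP synthase. Uqcr10, a small subunit of complex III, had the smallest p. It had 2505, 3252, 1836 and 2744 normalized counts in KO 1 to 4, against 3626, 3490.2, 3651 and 3857 in Flox 1 to 4, without overlap. Its log2 fold change was -0.53 (SE 0.14, unadjusted p 0.00367, adjusted p 0.239). All KO libraries were below all Flox libraries for 3 of the 78 subunits and above them all for 0. Over all tested genes 7.97% had no overlap in either direction.

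The other subunits named by the same rule had log2 fold changes of -0.54 for Ndufs4 and -0.30 for Ndufa9 in complex I. In complex II, of which the succinate dehydrogenase flavoprotein Sdha is the catalytic part, they were 0.05 for Sdha, -0.27 for Sdhc and -0.29 for Sdhd. In complex III they were -0.38 for the iron-sulfur protein gene Uqcrfs1 and -0.02 for Uqcrc2. Complex IV had -0.40 for Cox5a, -0.31 for Cox4i1 and 0.33 for Cox5b, and ATP synthase had -0.71 for Atp5e, -0.31 for Atp5j and -0.10 for Atp5b, the catalytic beta subunit. Adjusted p-values of these 13 genes were 0.254 to 0.936.

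Together the 78 subunits took 1.12%, 1.36%, 0.911% and 1.21% of reads in KO 1 to 4, against 1.27%, 1.26%, 1.32% and 1.35% in Flox 1 to 4. KO 3 and KO 1, which had the most mitochondrial mRNA, had the least nuclear subunit mRNA, and KO 2 was above all Flox libraries. Reads of mitochondrial mRNA per read of nuclear subunits were 2.62, 1.52, 4.45 and 1.37 in KO 1 to 4, against 1.44, 1.503, 1.31 and 1.25 in Flox 1 to 4. KO 1, KO 2, KO 3 and KO 4 were below the lowest Flox library for 50, 6, 68 and 34 of the 78 subunits (64.1%, 7.69%, 87.2% and 43.6%). Over all tested genes the same libraries were below the lowest Flox library for 32.5%, 29.6%, 35.8% and 20.7%. Without KO 1 and KO 3, 40 of 78 subunits were negative, with a median of 0.00 (-0.0016), and without KO 3 alone 56 were, with a median of -0.07. Gene span moved with the fold change over the whole table: in 5 equal bins of protein-coding genes by span, the median log2 fold change was -0.13 in the shortest bin (median 4.69 kb) and 0.12 in the longest (median 110.2 kb). The 78 subunits had a median span of 7.57 kb, and the part of span in their values was not tested.

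The mitochondrial ribosome, whose proteins are all nuclear-encoded, had 76 tested genes, 16 of them positive, with a median of -0.17, 0 called, and 2 higher and 8 lower at an unadjusted p under 0.05. For all tested genes the shares were 48.5% positive, 7.74% higher and 7.39% lower at that level. Mrpl45, a large-subunit protein, had 2410, 2564, 2364 and 2735 normalized counts in KO 1 to 4, against 3002, 2847, 3329 and 3132 in Flox 1 to 4. All KO libraries were below all Flox libraries, with a log2 fold change of -0.29 (standard error 0.08, adjusted p 0.239). A lack of overlap was seen in 7.97% of all tested genes. Mrpl27 stood at -0.72 and Mrpl13 at -0.31. The 15 genes of mitochondrial DNA upkeep had a median of -0.11, 5 positive, and 0 higher and 2 lower at an unadjusted p under 0.05. Tfam, which packages mitochondrial DNA and starts its transcription, had 2566, 3233, 2711 and 3393 normalized counts in KO 1 to 4, against 3666, 3364, 3653 and 3441 in Flox 1 to 4. KO 4 lay within the Flox range and the other KO libraries below it. Its log2 fold change was -0.26 (SE 0.10, adjusted p 0.290), and that of Ssbp1, the single-stranded DNA binding protein, -0.27 (adjusted p 0.289).

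The next lists stand beside the same shares over all tested genes, 48.5% positive, with 7.74% higher and 7.39% lower at an unadjusted p under 0.05. The 11 transcription genes had a median of -0.08, 4 positive, with 1 lower at an unadjusted p under 0.05 (Tfam again), Mterf1b at -0.52 and Mrpl12 at -0.15. The 34 genes that cut, modify or degrade mitochondrial RNA had a median of -0.01, 16 positive, and 2 lower at an unadjusted p under 0.05, the modifying enzymes Trmt61b at -0.27 and Pus1 at -0.20; Trnt1, which adds the CCA end to tRNAs, stood at -0.08. Of the 9 regulators of mitochondrial biogenesis 8 were positive, with a median of 0.15 and 2 higher at an unadjusted p under 0.05. These were the coactivator genes Pprc1 at 0.33 (adjusted p 0.254) and Ppargc1b at 0.44 (adjusted p 0.310), and Myc stood at 0.28 (adjusted p 0.363). Of 21 stress and quality control genes 7 were positive, with a median of -0.13 and 5 lower at an unadjusted p under 0.05. Ddit3, a stress transcription factor, stood at -0.47 (adjusted p 0.239), the mitophagy receptor gene Bnip3l at -0.45 (adjusted p 0.244) and the chaperone gene Hspa9 at 0.01.

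Ago2 HITS-CLIP sequences RNA fragments crosslinked to Ago2, to which miRNAs bind and which they guide to target RNAs. The deposited dCLIP output compares a pair of conditions in which the replicates were pooled, and does not say which condition is KO. No CLIP value is therefore given a direction by genotype, and none carries an error between libraries. Each 5-nt bin has a difference, on the authors' scale, and a hidden state that is negative, middle or positive. On the mitochondrial chromosome, bins in the negative state averaged -0.238, those in the middle state -0.00957 and those in the positive state 0.279.

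The strands of the mitochondrial chromosome differed in these states. On the plus strand, which carries the sense of 28 of the 37 genes, 33.7% of bins were in the negative and 4.79% in the positive state, with a mean difference of -0.0778. On the minus strand 15.3% were negative and 16.5% positive, with a mean of 0.00855. On all other chromosomes 22.9% were negative and 6.17% positive, 29.1% in either of them, with a mean of -0.0436. Neighbouring bins share reads and a smoothed state, so their number is no measure of precision.

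The rRNAs had the most negative values among the gene classes. On their own strand 74.4% of bins were in the negative state and 0 of 507 in the positive state. mt-Rnr1 averaged -0.211 with 89.5% of bins negative, and mt-Rnr2 averaged -0.171 with 65.2%. On the opposite strand bins covered only 23.0% of mt-Rnr1 and 31.3% of mt-Rnr2, with means of -0.0742 and -0.0957. Of the authors' 962700 regions 337 were on the mitochondrial chromosome (0.0350%), and 162 of these had a score above 0. Of the 100 regions with the highest scores 11 were mitochondrial. Ranks are by this score, which did not follow the size of the difference. The region chrM:12656-12720 on the minus strand averaged 0.497 at rank 10166. All 11 had negative means, and the 5 highest lay in the rRNAs: chrM:1571-2090 in mt-Rnr2 (mean difference -0.233, rank 6 of all regions), chrM:171-1025 over mt-Rnr1 (-0.228, rank 7), chrM:2361-2475 in mt-Rnr2 (-0.192, rank 8), and 2 more at ranks 14 and 17 that reach from mt-Rnr2 into the tRNA genes beside it.

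Among the mRNAs, 12 of 13 had a negative mean on their own strand, from -0.177 in mt-Nd3 to -0.00883 in mt-Nd2. mt-Nd1 averaged -0.169 with 59.2% of bins negative, mt-Atp8 -0.160 with 78.0%, mt-Co3 -0.142 with 53.5% and mt-Nd3 had 73.9% negative. mt-Co1 averaged -0.0276, mt-Cytb -0.0303 and mt-Nd5 -0.0119, with 6.47%, 13.5% and 8.22% of bins negative in that order, all below the 22.9% of other chromosomes. mt-Nd6 was the exception, with a mean of 0.143 and 57.7% of bins positive. It lies on the minus strand, as do the strand opposite mt-Nd5, which averaged 0.130 with 43.6% positive, and that opposite mt-Cytb, at 0.0576 with 31.9% positive. Between mt-Nd6 and mt-Cytb on that strand, mt-Te had a negative mean, -0.0831, with 42.9% of bins negative and none positive, and its region chrM:14071-14100 (-0.215) had rank 87. Opposite mt-Rnr1 and mt-Rnr2 0 bins were positive, and opposite mt-Co1 2.17% were. The control region, which holds the promoters and no gene, averaged -0.0380 on the plus and 0.0380 on the minus strand.

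**Figure D4:**
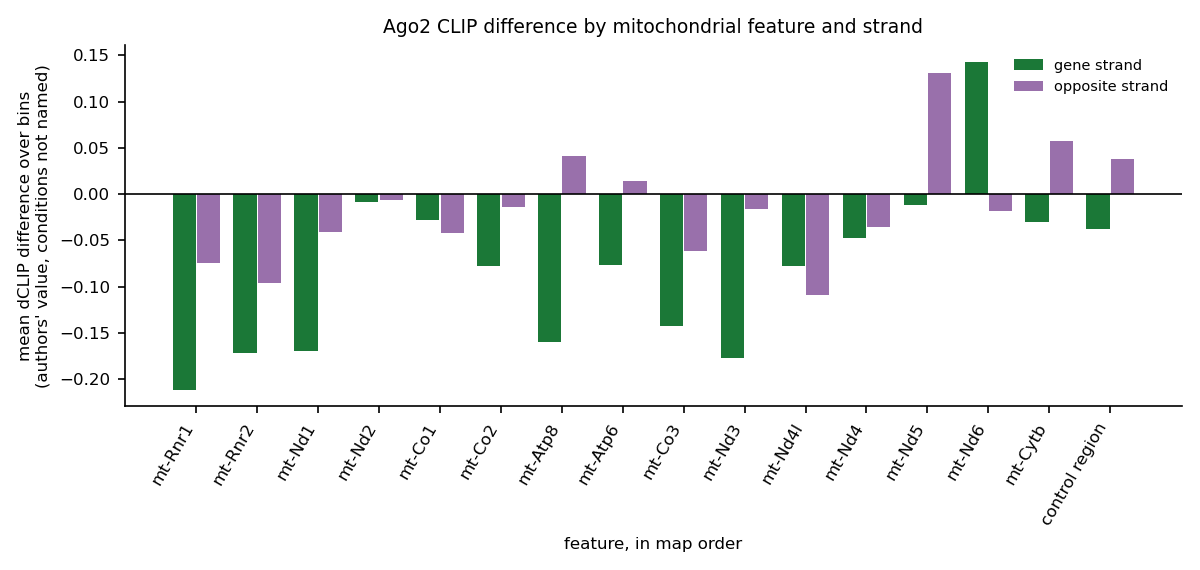
Mean dCLIP difference over bins for each rRNA, mRNA and the control region in map order, on the strand of the gene (green) and on the opposite strand (purple); for the control region green is the plus strand. Conditions are not named, values pool replicates and carry no error; mt-Nd6 (0.143) and the strand opposite mt-Nd5 (0.130) have the highest means and mt-Rnr1 (-0.211) the lowest.

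The 22 tRNAs had 14 negative and 8 positive mean differences on their own strand, with at most 15 bins each. mt-Tm was lowest at -0.255, with 92.9% of bins negative, and a region at chrM:3851-3915 over it ranked 30 of all regions. mt-Tw was highest at 0.231, with 69.2% of bins positive. mt-Tl2 averaged 0.188 with 50% of bins positive, and mt-Ty 0.177 with 53.8% positive. The lowest means on the opposite strand were -0.315 at mt-Tn and -0.300 at mt-Tp, where all bins were negative. The highest-ranked region with a positive mean lay at chrM:15391-15415 on the minus strand in mt-Tp (0.238, rank 207), followed by chrM:4951-4995 over mt-Tw (0.324, rank 239).

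The genes at 0 in RNA-seq were covered in CLIP. On their own strand bins covered at least 99.1% of each of the 13 mRNAs, the 6 unread ones included. Inside the copied window 37.6% of plus-strand bins were negative and 3.00% positive (mean -0.0912), and outside it 32.2% and 5.50% (mean -0.0723). On the minus strand 20.2% were negative and 5.73% positive inside the window (mean -0.0419), and 13.0% and 21.5% outside it (mean 0.0322). The chromosome 1 copy was itself covered: bins filled 99.8% of its minus strand, from 24611536 to 24616190, and 0 bins lay in the 200 nt beyond either end.

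Matched position by position, the 931 bins of the chromosome 1 minus strand averaged -0.0773, and their mitochondrial plus-strand partners -0.0914. Across these bins the differences correlated with a Pearson r of 0.562 (Spearman 0.629), and 77.9% had the same sign. For the 878 matched bins of chromosome 1 plus and mitochondrial minus, r was 0.367 (Spearman 0.328) and 63.4% had the same sign. These are descriptions over neighbouring bins of the same pooled libraries, which share base sequence and may share reads; how CLIP reads that match both places were assigned is not given in the sources used here.

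**Figure D5:**
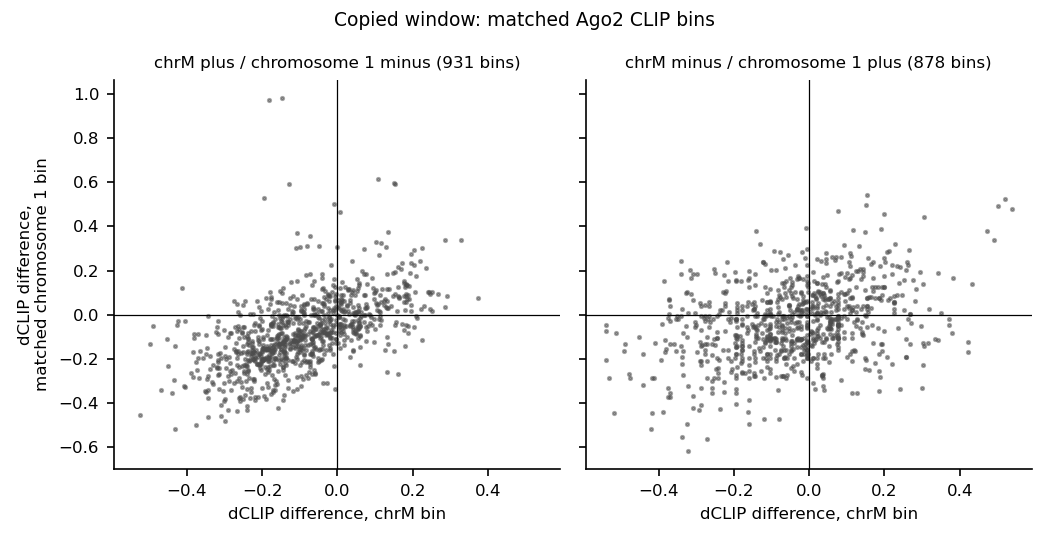
dCLIP difference of each mitochondrial bin in the copied window (horizontal axis) against that of its matched chromosome 1 bin (vertical axis), for the mitochondrial plus strand (left, 931 bins) and minus strand (right, 878 bins). Points are bins, not replicates; the left cloud leans along the diagonal more than the right one (r 0.562 and 0.367).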

How the data were processed

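The deposited expression table gives a normalized count (unit signal) for each gene and library, counts that the authors scaled with 1 size factor for each library and gave to 1 decimal, per the file headers and values. It also gives the authors' log2 fold change, p-values with FDR, and gene GC percent, per the file headers. The deposited dCLIP output gives a difference score and a state per bin, and the deposited summary a score per region. The submitters' processing notes list mm9 and the tools STAR, Bowtie2, cutadapt, SAMtools, DESeq and DESeq2, with no role or version; all 37 gene positions equal those of RefSeq GRCm38, and the chromosome 1 positions in the table are read as GRCm38. Annotated strand is from the table; strand use in counting is not given in the sources used here.

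limma 3.58.1 (trend) was run on log2 of the normalized count plus 1, for genes with a mean of at least 10, with Benjamini-Hochberg adjustment over 13091 genes and a two-sided threshold of 0.05. This fold change is on the log2(value + 1) scale and understates the change of low genes. Values stepped in whole reads (100% within 0.1 read in each library), and edgeR 4.0.16, which called 9 genes, and DESeq2 1.42.0 were run on those reads as alternatives. The limma, edgeR and DESeq2 steps were tested on simulated counts. Counts of 0 and intervals cover counting error only. 8 per-sample columns of stabilized values were not used, nor the CLIP tag and mutation columns, whose conditions are not named.

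The members and gene lists were chosen with earlier results of these data known. Every mitochondrial gene is accounted for, and from each list the 2 genes with the smallest p and the 1 with the highest mean are named; 1 gene under this rule is not reported here. Alternatives were the filter, pseudocount, scaling, tool, quality weights, replicate block, each library left out, and KO 1 with KO 3 left out; those for the nuclear lists were added after the data were seen. Mitochondrial sequences were not used here.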

Additional observations from a re-analysis of the deposited data

Results flagged for a closer look

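Among 58 groups of 4 libraries checked for a single library far from the others, 2 were marked, where chance marks about 1 in 20. The mt-Nd6 value of KO 3, 1440.6 normalized counts, stood far above the other KO libraries, which had 378.2 to 529.8. The mt-Co1 value of Flox 1, 198495 normalized counts, was below the other Flox libraries, which lay between 216164 and 217733.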

How the results depend on the processing

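The 14 tested mitochondrial genes had 0 calls under every alternative run. Of 249 comparisons of a single gene's log2 fold change with its value under an alternative, 234 kept their direction and 15 had the other sign; the cause was not tested. Those were mt-Tt with quality weights (-0.10), mt-Nd6 by edgeR and by DESeq2 (0.18 each), and, without KO 1 and KO 3 together, mt-Rnr1 (-0.10), mt-Nd2 (-0.021), mt-Nd4 (-0.12), mt-Tl1 (0.094), mt-Tw (0.032) and mt-Tt (-0.22). With 1 library left out at a time, mt-Nd6 ranged from -0.42 to 0.22, mt-Tt from -0.029 to 0.49 and mt-Tw from -0.41 to 0.015, the rest of the 15 lying in these ranges. Over all genes, 9 were called, 16 with quality weights, 8 to 17 with 1 library left out (17 without KO 2, 14 without KO 4) and 199 by DESeq2. Of the list genes DESeq2 called 1, against 0, and without KO 1 and KO 3 the negative subunits numbered 40, against 69. The rRNA to mRNA difference was -0.0168 as reads, -0.0554 per kb, -0.00975 without KO 3 and -0.00514 without KO 1 and KO 3. For CLIP, regions with a score of at least 5 gave means of -0.168 on the plus and 0.130 on the minus strand, and the minus-strand median was -0.0014. Same-numbered libraries did not deviate together (correlations -0.0943, -0.0647, -0.0502 and 0.0027), and with the replicate number as a block 11 genes were called, 0 of them mitochondrial. Depth limits the tRNAs, which had 146 to 276 reads per library in all.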
